A study of Homo sapiens with 9 samples.

Results

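A chosen set of 10 DEAH-box RNA helicases other than DHX34 was followed in K562 cells depleted of DHX34 or of UPF1. The genes were chosen by name and family: DHX8, DHX9, DHX15, DHX16, DHX29, DHX30, DHX33, DHX36, DHX37 and DHX38. They are 10 of the 58214 genes to which the deposited transcripts could be joined. Further DExH-family genes, DHX35 and DHX40 among them, were counted from a separate list and are not part of the 10. The comparisons asked whether related helicases were higher when DHX34 was low, and whether any of them, DHX37 included, was lower together with it.

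K562 is an erythroleukaemia line derived from chronic myeloid leukaemia, and the cell line tag in the labels spells it K652. The control group (SCR, 3 libraries) received a non-targeting siRNA pool, although its treatment tag reads WT. The DHX34 knockdown group (3 libraries) received an siRNA pool against DHX34, and the UPF1 knockdown group (3 libraries) received siRNAs against UPF1. The cells of all 3 groups were otherwise untreated and were transfected again with the same siRNAs before harvest, 4 days after the first transfection, and the libraries were made from poly(A)-enriched RNA. The knockdowns were partial and no rescue was included. DHX34, which acts with UPF1 in nonsense-mediated decay (NMD, the degradation of mRNAs with premature stop codons), was at 72.5, 74.0 and 74.7 CPM in SCR and at 30.038, 30.001 and 34.045 CPM in its own knockdown, a ratio of 0.425. UPF1, the core NMD helicase, was at 252, 266 and 267 CPM in SCR and at 105.1, 107.3 and 104.5 CPM in its own knockdown, a ratio of 0.402. CPM here is the count relative to the library total after TMM scaling, a correction of library size that sets most genes level between libraries.

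The libraries held 73478797 to 103625443 expected counts. Markers of the line were present, with 11 of 11 K562 genes at a mean of at least 1 TPM in each group (TPM is abundance per transcript length, relative to all transcripts). Their summed level was 25593 to 27187 TPM in SCR, 23574 to 25672 TPM in the DHX34 knockdown and 15547 to 16755 TPM in the UPF1 knockdown. No T cell, monocyte or epithelial marker reached a mean of 1 TPM in any group, and CD8A, MS4A1 and KRT5 were at 0. In the B cell list 1 of 3 genes passed 1 TPM, with a summed level of 1.80 to 2.46 TPM in SCR, 3.49 to 3.98 TPM in the DHX34 knockdown and 1.56 to 1.91 TPM in the UPF1 knockdown. The part of these markers in the results was not tested. In bulk RNA, fewer cells of a type and less RNA per cell cannot be told apart.

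DEAH-box helicases use nucleotide hydrolysis to pull on RNA, which unwinds duplexes and strips proteins from ribonucleoprotein complexes. The spliceosomal members drive its remodelling steps and its disassembly, while others work in ribosome assembly, in translation or on structured RNA. Several are switched on by cofactors that carry a G-patch, a short glycine-rich motif.

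The helicases spanned a wide range of levels. In SCR, per length, DHX9 was the most abundant at 143.8 ± 4.72 TPM (SD, n = 3), followed by DHX15 at 106 ± 2.69 TPM and DHX30 at 74.9 ± 3.27 TPM. DHX36 was at 37.7 ± 0.916 TPM, DHX16 at 28.1 ± 1.61 TPM and DHX38 at 24.0 ± 0.205 TPM. These 6 did not overlap their neighbours in the order. DHX37 followed at 17.7 ± 4.66 TPM, and its 3 SCR libraries ran from 12.6 to 21.7 TPM, across the ranges of DHX8 (13.7 ± 0.624 TPM) and DHX29 (12.5 ± 0.799 TPM). The ranges of DHX29 and DHX33 (11.6 ± 0.956 TPM) overlapped too. The order of the lowest 4 was therefore resolved only in part, with DHX33 below the ranges of DHX8 and DHX37. The DHX37 level leaves out ENST00000539298, a transcript as long as the main DHX37 transcript and described below. Together that pair was at 22.1, 25.0 and 23.5 TPM in SCR, across the DHX38 range of 23.7 to 24.1 TPM. The place of DHX37 in the order depends on that split.

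With DHX34 depleted, none of the 10 helicases rose past the threshold of the test and 2 fell, DHX33 and DHX37. The threshold was an edgeR adjusted p of at most 0.005 over all genes. Of all 17004 genes tested, 10.4% passed it and 4.86% did so downwards. The 3 DHX34 knockdown libraries lay outside the SCR range for 6 of the 10, against 41.4% of all genes: DHX8, DHX16, DHX29 and DHX38 above it, DHX33 and DHX37 below. The absence of rises depends on the setting: DHX8 passed upwards by DESeq2, with all 9 libraries in one fit and by limma on log2 CPM, DHX8 and DHX29 with no filter on low counts, and DHX8, DHX16 and DHX29 at an adjusted p of at most 0.05. With length-scaled counts or TPM no helicase passed in either direction. The fall of DHX37 also did not pass by limma on log2 CPM, with or without removal of length and GC trends. With ENST00000539298 added to its counts it was -0.09 (edgeR adjusted p 0.152). The median log2 fold change of the 10 was 0.03, beside 0.02 over all genes.

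With UPF1 depleted, 1 helicase rose, DHX33, and 2 fell, DHX30 and DHX37. Over all 17184 genes, 25.3% passed the same threshold, 12.4% upwards and 12.9% downwards. These calls depend on the scale. By limma on log2(TPM + 0.5), where the median of all genes was itself 0.20, 4 helicases passed upwards (DHX9, DHX15, DHX16 and DHX33, beside 24.1% of genes) and none downwards. With length and GC trends removed from log2 CPM, DHX9 and DHX30 passed downwards, beside 20.5% of genes, and none upwards. The fall of DHX37 did not pass by limma on log2 CPM either. With ENST00000539298 added to its counts it was -0.06 (edgeR adjusted p 0.248). The libraries did not overlap for 6 of the 10, against 50.5% of all genes. The median log2 fold change of the 10 was -0.01, beside 0.02 over all genes. Both contrasts use the same SCR libraries, so their values are given side by side and not compared.

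The knockdowns were also compared directly, without SCR. Here 1 of the 10 was higher in the UPF1 knockdown, DHX33, and 1 was lower, DHX30. Of 17435 genes, 17.4% passed, 9.89% upwards and 7.47% downwards. The groups did not overlap for 6 of the 10 helicases, against 45.9% of all genes. In the plot of CPM by group, most panels show small shifts with small spread, DHX33 is lowest with DHX34 depleted and highest with UPF1 depleted, and DHX37 is lower in both knockdowns and varies widely between libraries, most of all in SCR.

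**Figure D1:**
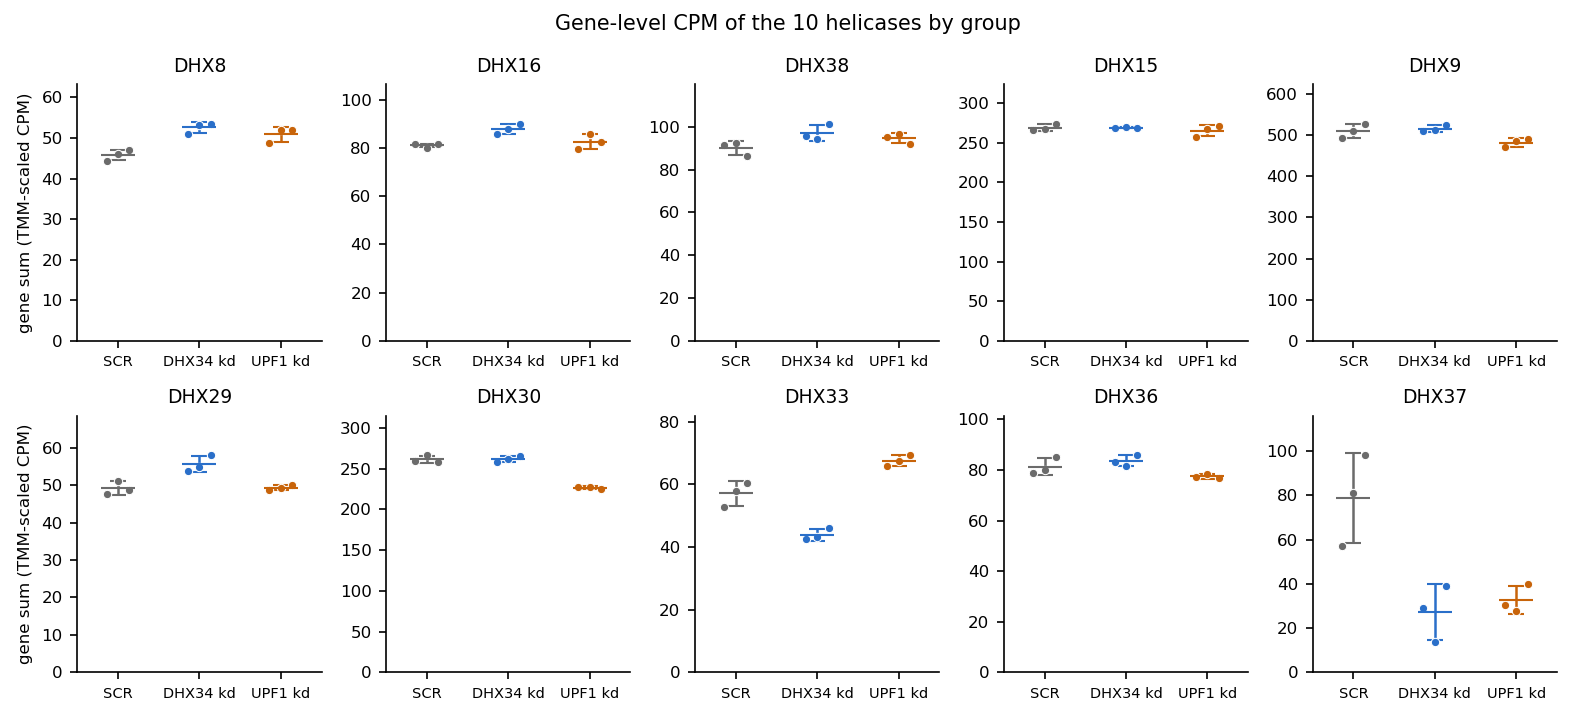
Level of each helicase (gene sum, TMM-scaled CPM, axis from 0) in SCR, DHX34 knockdown and UPF1 knockdown, with points for the 3 libraries and bars for the mean ± SD. DHX33 was at 57.1 CPM in SCR, 43.9 CPM with DHX34 depleted and 67.5 CPM with UPF1 depleted (means), and DHX37 was at 78.8, 27.3 and 32.9 CPM. The DHX37 values leave out ENST00000539298.

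**Figure D2:**
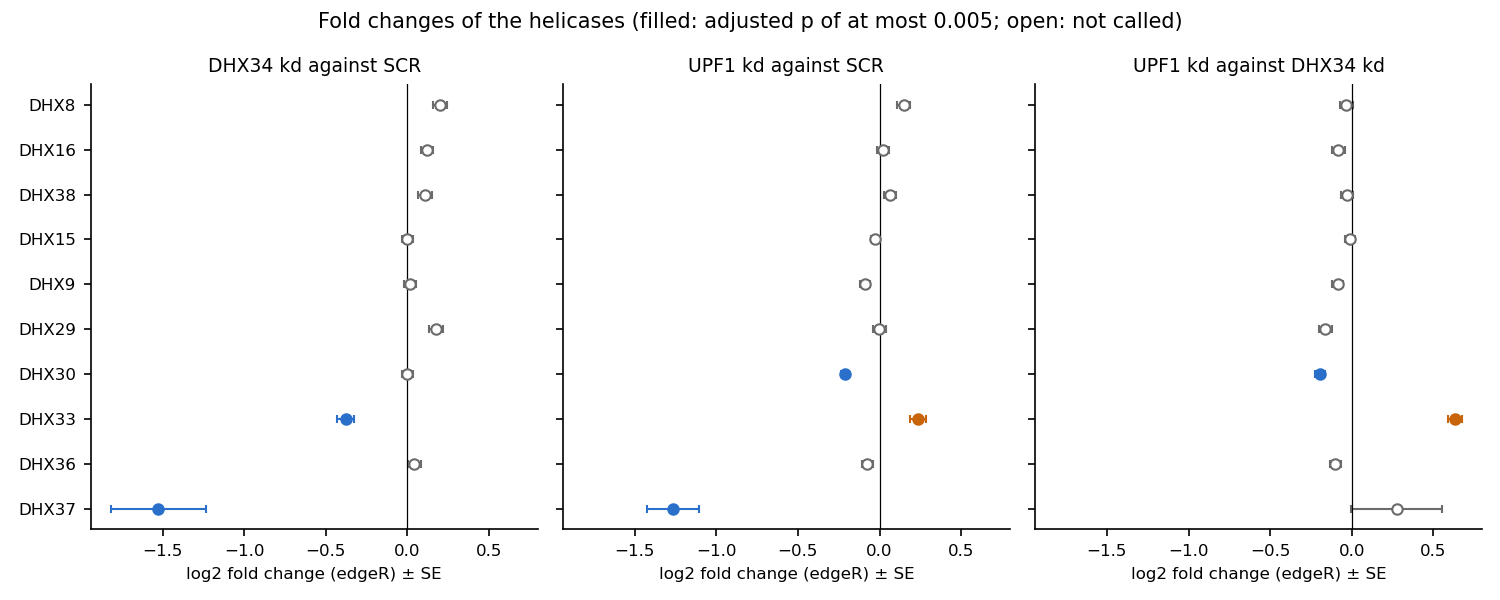
Log2 fold change of each helicase (edgeR, bars are 1 SE) in the 3 comparisons, filled where the adjusted p was at most 0.005. DHX33 had -0.38, 0.24 and 0.63 from left to right, while DHX37 had -1.53, -1.27 and 0.28 with the widest bars. With ENST00000539298 added, DHX37 had -0.09, -0.06 and 0.05 and did not pass.

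Of the spliceosomal helicases, DHX8, DHX16 and DHX38 were slightly above SCR in the DHX34 knockdown without passing, and DHX15 was level. The 95% confidence intervals (limma, log2 CPM) of these differences were positive throughout. They ran from 0.106 to 0.295 for DHX8, 0.038 to 0.203 for DHX16 and 0.018 to 0.205 for DHX38. DHX8, which releases spliced mRNA from the spliceosome (chr17:43483865-43610338, plus strand, GRCh38), was at 44.4, 46.0 and 47.1 CPM in SCR, at 50.9, 53.3 and 53.6 CPM in the DHX34 knockdown and at 48.8, 52.0 and 52.1 CPM in the UPF1 knockdown. Every knockdown library was above every SCR library. Its log2 fold change of 0.20 (SE 0.04) in the DHX34 knockdown had an adjusted p of 0.00519, just outside the threshold, and the 0.15 (SE 0.04) in the UPF1 knockdown had 0.011. By DESeq2 the adjusted p of the former was 0.00197, and over the 13 other settings it ran from 0.00065 to 0.251.

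DHX16, which drives the activation of the spliceosome (chr6:30653119-30673006, minus strand), was at 80.1 to 81.5 CPM in SCR, 86.0 to 90.1 CPM in the DHX34 knockdown and 79.5 to 85.8 CPM in the UPF1 knockdown. The DHX34 knockdown libraries were above both other groups, which overlapped, and the log2 fold change from SCR was 0.12 (SE 0.04, adjusted p 0.0266). That value was -0.03 (limma adjusted p 0.642) with length and GC trends removed. DHX38, which acts before the second splicing step (chr16:72093613-72112912, plus strand), was at 86.1 to 92.3, 94.3 to 101 and 92.0 to 96.5 CPM in the same order. The DHX34 knockdown libraries again lay above SCR, and the UPF1 knockdown range reached into both. Its log2 fold changes of 0.11 (SE 0.04) and 0.07 (SE 0.04) had adjusted p of 0.081 and 0.191, and with the same trends removed they were -0.07 (limma adjusted p 0.234) and -0.03 (limma adjusted p 0.473). Exons of the main DHX38 transcript share 433 bases with PMFBP1 on the opposite strand, and strand use in the counting was not given in the sources used here, so reads there cannot be told apart.

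DHX15, which takes spent spliceosomes apart and is a well known partner of G-patch proteins (chr4:24517441-24584554, minus strand), was the flattest of the 10. It was at 266, 268 and 274 CPM in SCR, at 269, 270 and 268 CPM in the DHX34 knockdown and at 257, 267 and 271 CPM in the UPF1 knockdown. The 3 ranges overlapped. The 95% confidence interval (limma, log2 CPM) of its difference from SCR ran from -0.07 to 0.08 in the DHX34 knockdown and from -0.09 to 0.04 in the UPF1 knockdown.

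DHX9, a nuclear helicase that unwinds double-stranded and other structured RNA (chr1:182839347-182887982, plus strand), was at 493 to 528 CPM in SCR, at 510 to 525 CPM in the DHX34 knockdown and at 470 to 490 CPM in the UPF1 knockdown. The UPF1 knockdown libraries lay below both other groups, by a log2 fold change of -0.09 (SE 0.03) in each case, with adjusted p of 0.034 against SCR and 0.0529 against the DHX34 knockdown. The direction against SCR turned with the scale, and both ends passed: 0.23 in TPM (limma adjusted p 0.00109), which is 0.02 relative to the median of all genes, and -0.18 with length and GC trends removed (limma adjusted p 6.51e-05). DHX36, which resolves G-quadruplexes (chr3:154272546-154324487, minus strand), was at 78.9 to 85.0, 81.8 to 85.9 and 76.7 to 78.5 CPM in the same order. Its log2 fold change in the UPF1 knockdown was -0.07 (SE 0.04, adjusted p 0.109). For both genes the interval of the difference from SCR in the DHX34 knockdown reached no further than 0.13 above 0.

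DHX29, which helps the small ribosomal subunit scan structured mRNA leaders (chr5:55256055-55307694, minus strand), was at 47.7, 51.2 and 48.8 CPM in SCR and at 53.8, 54.9 and 58.0 CPM in the DHX34 knockdown. In the UPF1 knockdown it was at 48.71, 49.22 and 50.03 CPM, within the SCR range. The DHX34 knockdown libraries were above both other groups. The log2 fold change against SCR was 0.18 (SE 0.05, adjusted p 0.015), and that of the UPF1 against the DHX34 knockdown was -0.16 (SE 0.04, adjusted p 0.00894). The 95% confidence interval (limma, log2 CPM) of the former difference ran from 0.077 to 0.275.

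DHX30, known for its roles in mitochondrial and cytoplasmic translation, fell in the UPF1 knockdown. It lies at chr3:47802909-47850195 on the plus strand and was at 260, 267 and 258 CPM in SCR, at 258, 261 and 265 CPM in the DHX34 knockdown and at 228, 228 and 225 CPM in the UPF1 knockdown. The UPF1 knockdown libraries were tight and below all 6 others, while the other groups overlapped. The log2 fold change was -0.21 (SE 0.03, adjusted p 6.97e-05) against SCR and -0.19 (SE 0.03, adjusted p 0.000411) against the DHX34 knockdown. It passed in all 6 fits that each left out 1 library, in both comparisons. In TPM, the median of all genes moved by 0.20 (log2) in the UPF1 knockdown, and DHX30 was at 0.01, which is -0.19 relative to that median. After the trends with gene length and GC content were removed, the difference from the DHX34 knockdown was -0.07 (limma adjusted p 0.17), and DHX30 passed as lower than SCR in the DHX34 knockdown, at -0.22 (limma adjusted p 0.000731). Its transcripts have a GC content of 59.6%, beside a median of 49.5% over the genes tested.

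DHX33, which takes part in ribosomal RNA synthesis and in translation initiation, was the helicase whose level separated the 3 groups. It lies at chr17:5440917-5468982 on the minus strand and was at 52.9, 57.9 and 60.5 CPM in SCR. It was at 42.54, 43.03 and 46.18 CPM in the DHX34 knockdown and at 65.9, 67.4 and 69.3 CPM in the UPF1 knockdown. No group overlapped another. The log2 fold change was -0.38 (SE 0.05, adjusted p 0.000565) in the DHX34 knockdown and 0.24 (SE 0.05, adjusted p 0.00153) in the UPF1 knockdown, against SCR in both.

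The direct difference for DHX33 was 0.63 (SE 0.04, adjusted p 1.2e-06), with the UPF1 knockdown 1.55 times the DHX34 knockdown. It passed in 6 of 6 fits that each left out 1 library and under 13 of 13 other settings, from 0.61 to 0.69. The contrasts with SCR were less firm. Without SCR replicate 3 the fall in the DHX34 knockdown had an adjusted p of 0.00548, and on the TPM scale it was -0.16 (limma adjusted p 0.199), or -0.32 relative to the median of all genes. The rise in the UPF1 knockdown passed without SCR replicate 3 or UPF1 knockdown replicate 1, and had an adjusted p of 0.00554 to 0.00974 without each of the 4 others. With length and GC trends removed it was 0.10 (limma adjusted p 0.0716).

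The DHX33 gene sum is made of a main coding transcript and a smaller one annotated as an NMD substrate. The coding transcript, DHX33-201, held 80.2% of the gene's TPM as a mean over the 9 libraries. It was at 8.98, 10.1 and 10.4 TPM in SCR, at 7.83, 7.72 and 8.81 TPM in the DHX34 knockdown and at 12.6, 12.7 and 13.1 TPM in the UPF1 knockdown. It was higher in the UPF1 than in the DHX34 knockdown by 0.59 on the log2 scale of its counts (SE 0.05, adjusted p 0.00166 over all transcripts). Against SCR it did not pass, at -0.43 (SE 0.07, adjusted p 0.0352) in the DHX34 knockdown and 0.13 (SE 0.06, adjusted p 0.275) in the UPF1 knockdown. In TPM the median of all genes was itself 0.20 higher (log2) in the UPF1 knockdown than in SCR.

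DHX33-204, the NMD-annotated transcript, held 12.1%. It was at 0.749, 1.44 and 0.886 TPM in SCR, at 1.07, 0.977 and 1.39 TPM in the DHX34 knockdown and at 2.26, 3.46 and 2.59 TPM in the UPF1 knockdown. The UPF1 knockdown libraries were above all others, and the other groups overlapped. Its log2 fold change in the UPF1 knockdown was 1.19 (SE 0.29), with an adjusted p of 0.0547 that missed the threshold, and that against the DHX34 knockdown was 1.22 (SE 0.22, adjusted p 0.0306). It rests on 100 to 538 expected counts per library, so counting error is part of its spread.

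**Figure D3:**
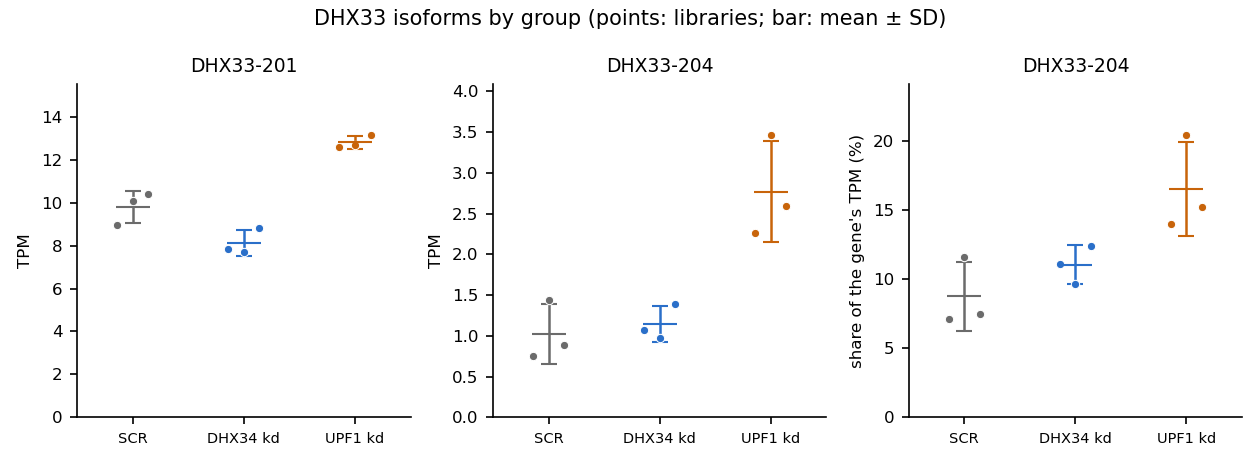
DHX33 isoforms in the 3 groups, as TPM of the coding transcript DHX33-201 (left), TPM of the NMD-annotated DHX33-204 (middle) and the percent of the gene's TPM on DHX33-204 (right), with points for libraries and bars for the mean ± SD. DHX33-201 was lowest in the DHX34 knockdown and highest in the UPF1 knockdown, and the share on DHX33-204 was 13.98 to 20.43% in the UPF1 knockdown against 7.14 to 11.6% in SCR.

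DHX37, which frees a small nucleolar RNA from the precursor of the small ribosomal subunit, had the largest differences of the 10 as a gene sum. It lies at chr12:124946825-124989131 on the minus strand and was at 57.3, 80.9 and 98.2 CPM in SCR. It was at 29.3, 13.7 and 38.9 CPM in the DHX34 knockdown and at 30.66, 27.98 and 39.98 CPM in the UPF1 knockdown. All 6 knockdown libraries were below SCR, and the libraries of 1 group differed more than for any other helicase. The log2 fold change was -1.53 (SE 0.29, adjusted p 0.00294) in the DHX34 knockdown and -1.27 (SE 0.16, adjusted p 6.9e-05) in the UPF1 knockdown. The latter passed in 6 of 6 fits that left out 1 library. The former passed only without DHX34 knockdown replicate 2 (-1.22, adjusted p 0.00167) or replicate 3 (-1.85, adjusted p 0.000615). It had an adjusted p of 0.00675, 0.013 and 0.0208 without SCR replicates 1, 2 and 3, and 0.0115 without DHX34 knockdown replicate 1.

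The DHX37 sum moved through a single transcript, DHX37-201 (ENST00000308736), which has 4550 bases in the deposited tables and held 84.9% of the gene's TPM. Another transcript of the tables, ENST00000539298, also has 4550 bases. Its effective length (the length corrected for fragment size and sequence bias) differed from that of DHX37-201 by 0.007 to 0.052 bases in the 9 libraries. It has no match in the annotation joined here, so it counts towards no gene. Transcripts of at least 1000 bases and a mean of at least 100 counts were screened for such partners. Among the 23 helicase transcripts screened, DHX37-201 was the only one with a partner within 0.1 base in all libraries. Of all 24583 transcripts screened, 4 (0.0163%) had a partner. These 4 include DHX37-201 and ENST00000539298 themselves, so the share is not an independent background for the pair. The pair was sought after the scatter of DHX37 had been seen.

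The levels of the pair mirrored each other. DHX37-201 was at 55.8, 79.3 and 96.6 CPM in SCR, at 26.4, 12.6 and 36.7 CPM in the DHX34 knockdown and at 29.1, 25.9 and 37.8 CPM in the UPF1 knockdown. ENST00000539298 was at 47.7, 33.4 and 12.6 CPM in SCR, at 75.1, 85.0 and 67.8 CPM in the DHX34 knockdown and at 73.6, 79.5 and 66.9 CPM in the UPF1 knockdown. Within each group, the library with more of one had less of the other.

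Their sum was nearly flat. It was at 103.5, 112.6 and 109.2 CPM in SCR, at 101.5, 97.57 and 104.5 CPM in the DHX34 knockdown and at 102.7, 105.4 and 104.7 CPM in the UPF1 knockdown. The highest library was 1.15 times the lowest, while for DHX37-201 alone it was 7.66 times. DHX37-201 took 70.9% ± 17.3 of the sum in SCR, 24.7% ± 11.2 with DHX34 depleted and 29.7% ± 5.9 with UPF1 depleted (SD, n = 3).

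With ENST00000539298 added to the DHX37 counts, the log2 fold change was -0.09 (SE 0.04, adjusted p 0.152) in the DHX34 knockdown and -0.06 (SE 0.04, adjusted p 0.248) in the UPF1 knockdown. The count of helicases passing then went from 2 to 1 and from 3 to 2. Salmon shares reads that fit several transcripts between them. Whether the difference in DHX37-201 lies in the RNA or in that sharing was not tested, and the files give no read that would tell the transcripts apart.

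**Figure D4:**
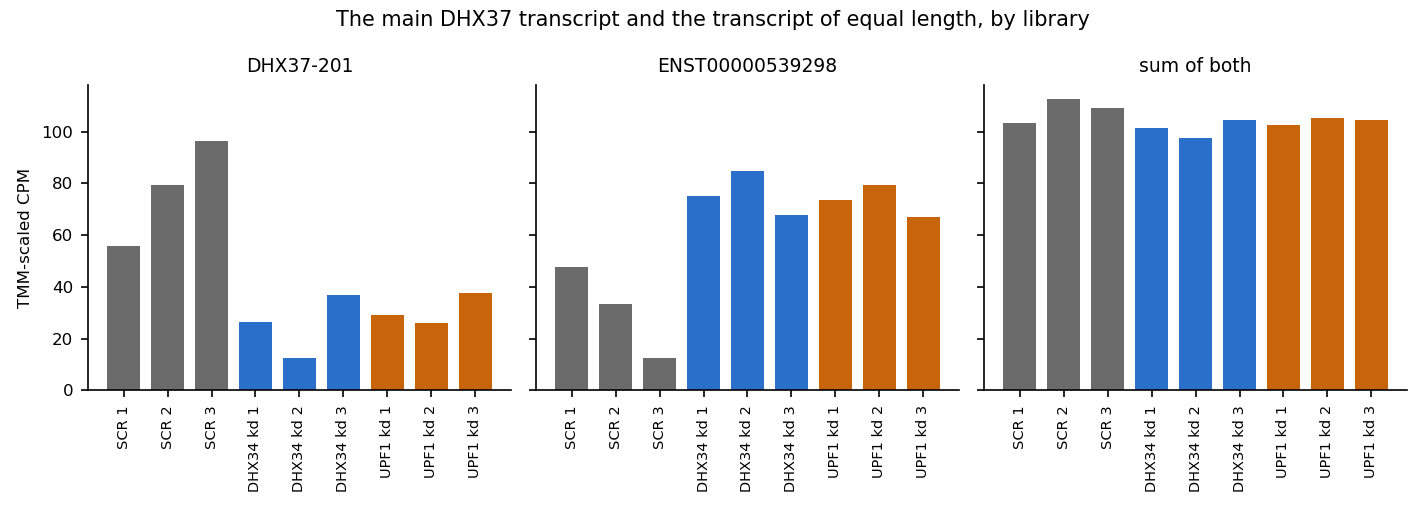
TMM-scaled CPM (axis from 0) of DHX37-201, of ENST00000539298 and of their sum in each of the 9 libraries, coloured by group. The bars of the left and middle panels mirror each other, and the sums stay between 97.6 and 113 CPM.

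The genes whose profile over the 9 libraries was most like that of the DHX37 sum were SPAST, SSX2, MT-ND4, EPHB6 and CFAP161, out of 10063 genes that averaged 5 CPM or more. The measure was the mean absolute difference of log2 CPM, each gene centred on its own mean. It was 0.27 for SPAST and 0.40 for CFAP161, where DHX37 itself spanned 2.79 on that scale. The named genes spanned less, from 0.85 (MT-ND4) to 1.81 (SSX2), with 1.48 for SPAST. The DHX37 sum used for the matching leaves out ENST00000539298. SPAST, the closest, was at 18.7, 20.9 and 17.3 CPM in SCR, at 9.06, 7.16 and 13.97 CPM in the DHX34 knockdown and at 9.25, 10.1 and 12.1 CPM in the UPF1 knockdown.

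The siRNA sequences were not given in the sources used here, so their match to the helicase mRNAs was not analysed. The longest run that each helicase mRNA shares with the DHX34 mRNA could be read from GENCODE 44 on GRCh38, using the representative (MANE) transcript of each gene. The runs were 12 to 19 bases long. Over 18163 other genes the median was 12 bases, and 0.226% had at least 19, which is the length of an siRNA duplex. DHX30 had the longest, in the coding part of its exon 14 and of DHX34 exon 5. DHX37 came next with 18 bases (0.897% of other genes had as many) inside a coding GGA repeat, in its exon 4 and in DHX34 exon 14. The pairs are shown because these 2 genes hold the longest matches to the targeted mRNA. Capitals mark the shared run, each line is the mRNA strand, and the coordinates cover the printed bases.
DHX30, chr3:47847854-47847882, plus strand: cttggCCACCAACATTGCTGAGACttcca
DHX34, chr19:47360006-47360034, plus strand: cctctCCACCAACATTGCTGAGACctcag
DHX37, chr12:124980726-124980753, minus strand: gctgaGGAGGAGGAGGAGGAGGAggagg
DHX34, chr19:47379896-47379923, plus strand: cagctGGAGGAGGAGGAGGAGGAtacgc

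DHX30, with the 19-base run, differed from SCR in the DHX34 knockdown by a log2 CPM of 0.00 with a 95% confidence interval of -0.08 to 0.08 (limma). With length and GC trends removed the difference was -0.22 (limma adjusted p 0.000731), which passed as lower. DHX33 and DHX16 each shared 16 bases with DHX34, also in GGA repeats. DHX33 fell in that knockdown, and DHX16 did not pass. DHX8 shared 15 bases, DHX38 14, DHX9 and DHX29 13, and DHX15 and DHX36 12. With the UPF1 mRNA the helicases shared 11 to 14 bases, and 14 or more were shared by 19.2% of other genes. A shared run is a description of the mRNAs and says nothing of which siRNA was used.

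At the level of transcripts the helicases had 86 isoforms in the tables. The 18 that held at least 10% of their gene's TPM include a single one for DHX15 (DHX15-201, 89.9%), DHX29 (DHX29-201, 93.4%), DHX30 (DHX30-207, 82.7%), DHX37 and DHX38 (DHX38-201, 80.0%). DHX9 had DHX9-201 at 85.1% and the short DHX9-205 at 11.8%, and DHX16 had DHX16-202 at 78.7% and DHX16-203 at 19.7%. DHX8 was split over DHX8-201 (42.4%), DHX8-202 (27.6%) and DHX8-204 (21.4%). DHX36 was split over DHX36-201 (28.7%), DHX36-210 (21.2%), DHX36-202 (19.1%) and the retained-intron form DHX36-212 (17.9%).

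In the DHX34 knockdown, 0 of the 50 helicase isoforms that passed the count filter changed by edgeR, where 0.0463% of all transcripts did. At an unadjusted p under 0.05 there were 10 of 50, beside 15.2% of all transcripts. By DESeq2 4 of 38 passed, beside 5.75% of all transcripts, and all 4 were lower: DHX16-201, DHX30-206, DHX33-201 and DHX37-201. With UPF1 depleted 1 of 53 changed, beside 2.59% of all, and 14 had an unadjusted p under 0.05, beside 22.7%. The edgeR call was DHX30-207, the main DHX30 transcript, with a log2 fold change of -0.28 (SE 0.03, adjusted p 0.00349). Without any 1 of the 6 libraries it kept a value of -0.31 to -0.26, with an adjusted p of 0.0112 to 0.0238 that no longer passed. By DESeq2 DHX33-204 passed upwards and DHX9-201, DHX30-207 and DHX37-201 downwards, beside 7.14% of all transcripts. Between the knockdowns 1 of 53 changed, beside 1.05% of all, and 9 had an unadjusted p under 0.05, beside 18.6%. By DESeq2 2 passed upwards and 3 downwards, beside 4.85% of all transcripts. The edgeR call was DHX33-201, described above, which still passed without DHX34 knockdown replicate 3 (adjusted p 0.00417) and had an adjusted p of 0.013 to 0.017 without each of the 5 others. In the simulated DHX34 comparison the transcript fit found 8% of 2-fold changes, so isoform changes of that size were mostly below what it can detect.

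Isoforms with at least a 2-fold difference from SCR at an unadjusted p under 0.05 were 1 higher and 4 lower in the DHX34 knockdown (DHX38-203, and DHX9-202, DHX16-201, DHX30-206 and DHX37-201). They were 3 higher and 3 lower in the UPF1 knockdown (DHX15-210, DHX29-204 and DHX33-204, and DHX9-202, DHX16-201 and DHX37-201). None of them passed by edgeR. How many of all transcripts meet both limits was not counted, so whether these counts are unusual cannot be told. By unadjusted p alone, 15.2% of all transcripts passed with DHX34 depleted, and 22.7% with UPF1 depleted. DHX30-206, a minor coding transcript, had 219, 101 and 75.7 expected counts in SCR and 0 in each DHX34 knockdown library (edgeR adjusted p 0.0289). In the UPF1 knockdown it had 0, 71.8 and 0 counts. Another coding isoform, DHX30-215, had 578, 0 and 0 counts in SCR and 0, 194 and 0 in the DHX34 knockdown. Salmon shares reads between transcripts that they fit, so an expected count of 0 does not bound the level of an isoform. DHX16-201, which held 1.16% of its gene, had 73.3 to 121 counts in SCR, 8.4 to 32.0 with DHX34 depleted and 8.6 to 41.4 with UPF1 depleted. Its log2 fold changes were -2.70 (SE 0.64, adjusted p 0.0985) and -1.92 (SE 0.61, adjusted p 0.119). DHX9-202 was at -1.73 (SE 0.52, adjusted p 0.176) and -1.83 (SE 0.46, adjusted p 0.0619), from 61.7 to 148 counts in SCR.

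Among the larger isoforms, DHX9-205, a transcript with no defined coding sequence, was at 12.9, 15.1 and 10.8 TPM in SCR, at 15.6, 20.4 and 19.9 TPM in the DHX34 knockdown and at 25.4, 22.9 and 28.3 TPM in the UPF1 knockdown. The 3 groups did not overlap in TPM, where the median of all genes was itself 0.16 and 0.20 higher (log2) in the DHX34 and UPF1 knockdowns. On counts (edgeR) its log2 fold change was 0.34 (SE 0.26, adjusted p 0.653) in the DHX34 knockdown. In the UPF1 knockdown it was 0.75 (SE 0.23, adjusted p 0.101). DHX8-202 was at 3.33, 3.15 and 3.12 TPM in SCR, at 4.96, 5.30 and 4.24 TPM in the DHX34 knockdown and at 4.64, 4.92 and 5.37 TPM in the UPF1 knockdown. Its log2 fold changes were 0.44 (SE 0.12, adjusted p 0.131) and 0.38 (SE 0.08, adjusted p 0.0346). DHX36-212 was at 2.56 TPM in UPF1 knockdown replicate 1 and at 7.06 and 9.80 TPM in the others, beside 7.84 to 8.32 TPM in SCR.

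Besides DHX33-204, 6 other helicase isoforms are annotated as NMD substrates, and 4 of these passed the count filter in the UPF1 comparison. Their log2 fold changes in the UPF1 knockdown were 0.77 (DHX8-207, SE 0.52), 0.17 (DHX30-204, SE 0.20), -0.23 (DHX36-208, SE 0.45) and -0.97 (DHX30-202, SE 0.45), with adjusted p from 0.271 to 0.846. Their values therefore lay on either side of 0 and none passed.

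The share of each isoform within its gene was tested by limma on log2 ratios. None of the 9 helicases that could be tested in the DHX34 knockdown passed at an adjusted p of 0.05, where 1.63% of all genes did. At an unadjusted p under 0.05 there was 1, DHX37, beside 14.4% of all genes. With UPF1 depleted 0 of 10 passed, beside 5.58% of all genes, and 6 had an unadjusted p under 0.05 (DHX8, DHX9, DHX15, DHX29, DHX33 and DHX37), beside 27.2%. The lowest adjusted p there was 0.0553 for DHX37, with a shift of -1.95 in the log2 ratio of DHX37-201 to its other isoforms, and it was 0.254 with ENST00000539298 added. By edgeR's diffSpliceDGE, DHX30 passed in the DHX34 knockdown (adjusted p 1.01e-10), beside 3.55% of all genes, and no helicase passed in the UPF1 knockdown. That method made 116 false calls in the simulated DHX34 comparison, against 9 by limma.

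Other genes of the same pathways were counted from lists. The shares of all genes that passed, for reading these counts, were 10.4% in the DHX34 knockdown (4.86% lower) and 25.3% in the UPF1 knockdown (12.4% higher, 12.9% lower). Of 7 further DExH-family genes, 5 were tested in the DHX34 knockdown and none passed, with log2 fold changes of 0.06 to 0.18 and a median of 0.16 beside 0.02 over all genes. In the UPF1 knockdown 3 of 6 rose and none fell: DHX35 by 0.45, YTHDC2 (an RNA helicase that binds methylated RNA) by 0.40 and DHX40 by 0.19. DHX35 and YTHDC2 were also higher in the UPF1 than in the DHX34 knockdown, by 0.30 and 0.24.

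Of 10 other spliceosomal helicases none passed in the DHX34 knockdown, where the range was -0.25 to 0.14. After UPF1 knockdown 2 rose, DDX42 by 0.23 and the export factor DDX39B by 0.19, and DDX5 was lower, at -0.16. None passed between the knockdowns. Of 23 G-patch proteins, SON (a scaffold of nuclear speckles) rose by 0.28 in the DHX34 knockdown and RBM17 fell, at -0.18. The count of 2 was 0 without DHX34 knockdown replicate 1 or any 1 SCR library, and 1 without DHX34 knockdown replicate 2. After UPF1 knockdown 3 rose and 3 fell, of which PINX1 had 0.53, GPATCH8 0.28, NKRF -0.24 and GPANK1 -0.22. PINX1 was higher in the UPF1 than in the DHX34 knockdown by 0.68 and GPANK1 was lower, at -0.18. The medians of the G-patch list were 0.04 and -0.04 in the 2 knockdowns, beside 0.02 over all genes in each.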

How the data were processed

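RNA was measured in 9 libraries (3 SCR, 3 DHX34 knockdown, 3 UPF1 knockdown). The authors ran salmon with GC-bias correction on Ensembl release 93 cDNA (GRCh38), and the deposited tables give expected counts, TPM, length and effective length per transcript. The authors' sleuth (p-values, effects) and SUPPA2 (splicing differences) tables hold their own comparisons and were not used. Of 203027 transcripts, 97.9% (98.1% of counts) were joined by identifier to GENCODE 44, where 85.8% have the same length. Totals were 73478797 to 103625443 counts, so precision is limited mainly by 3 libraries per group. Whether replicates were separate cultures is stated by the study only as biological replicates.

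Expected counts were summed per gene or taken per transcript, then rounded. They were fitted on all genes or transcripts of 2 groups by edgeR 4.0.16 (R 4.3.3, quasi-likelihood, TMM, filterByExpr with a minimum count of 10), with Benjamini-Hochberg adjusted p of at most 0.005. Isoform usage was tested by limma 3.58.1 on log2((TPM + 0.1)/(other isoforms' TPM + 0.1)), isoforms of at least 0.5 TPM, Simes p per gene, adjusted p of at most 0.05. Alternatives included DESeq2 1.42.0, other scalings, filters and pseudocounts, length-scaled counts, removal of length and GC trends, a replicate block and leaving out each library. Tests were tried on simulated data: of genes changed 2-fold among 16681 in the simulated DHX34 comparison, 76% were called, with 0 false calls. Of genes changed 1.25-fold, 30% were called, so most gene changes of that size were missed. Named isoforms held at least 10% of their gene's TPM or were called changed. List genes named were up to 4 called per comparison. Isoforms outside these rules were named after their values were seen. The genes and lists were chosen with earlier results of these data known.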

Additional observations from a re-analysis of the deposited data

Results flagged for a closer look

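The effects of the knockdowns were compared by the direct edgeR fit of UPF1 against DHX34 knockdown. DHX33 was higher in the UPF1 knockdown by 0.63 on the log2 scale, in 3 of 3 libraries above 3 of 3, and its transcript DHX33-201 by 0.59. DHX30 was lower there, at -0.19, with all 3 libraries below. Among the listed genes DHX35 (0.30), YTHDC2 (0.24) and PINX1 (0.68) were higher and GPANK1 (-0.18) was lower. The targeted genes differed by design, DHX34 by 1.27 and UPF1 by -1.29. ENST00000539298, which belongs to no gene sum used in the tests, had a mean of 75.9 CPM in the DHX34 knockdown and 73.3 CPM in the UPF1 knockdown, above its 31.2 CPM in SCR.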

How the results depend on the processing

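Of 118 counts of changed helicases, isoforms or usage under alternatives, 79 were within 1.5 times the reported one, and of 570 helicase fold changes 465 kept their direction and side of the threshold. In the DHX34 knockdown the count of helicases went from 2 (both lower) to 4 with no filter (2 higher), 5 at an adjusted p of 0.05 (3 higher), 0 with length-scaled counts or TPM, 1 with ENST00000539298 added, and 0 to 2 leaving out a library. In the UPF1 knockdown it went from 3 to 5 at 0.05 (2 to 3 leaving out a library), TPM giving 4 higher and 0 lower in place of 1 and 2, and between the knockdowns from 2 to 4 with no filter or at 0.05 and to 1 with length-scaled counts or TPM (2 leaving out a library). Isoform counts were 4, 4 and 5 by DESeq2 and 2, 3 and 3 at 0.05, 0 for the last pair with the replicate block, 2 between the knockdowns with all 9 libraries, 0 in the UPF1 knockdown by limma on TPM, and 0 to 1 leaving out a library. Usage counts went from 0 to 1 by diffSpliceDGE in the DHX34 knockdown and with a pseudocount of 0.5 in the UPF1 knockdown.

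Changed directions were mostly of values near 0. In the DHX34 knockdown DHX15 was at -0.008 by DESeq2, -0.007 with RLE factors, -0.001 with all 9 libraries, -0.004 from coding isoforms and -0.006 without length and GC trends (-0.010 to 0.015 leaving out a library), and DHX30 at -0.008, -0.007 and -0.001 under the first 3, -0.030 length-scaled and -0.218 without trends (-0.008 to 0.013). Without trends DHX9 was at -0.034 (-0.009 to 0.043 leaving out a library), DHX16 at -0.034 and DHX38 at -0.075, and length-scaled DHX36 at -0.029. In the UPF1 knockdown TPM gave 0.228 (DHX9, which passed, as did DHX15), 0.202 and 0.203 (DHX15), 0.270 and 0.278 (DHX29), 0.011 (DHX30) and 0.061 (DHX36). Length-scaled counts gave 0.010 (DHX9) and 0.062 (DHX29), all 9 libraries 0.003 and coding isoforms 0.024 (DHX29, -0.030 to 0.021 leaving out a library), and trend removal -0.056 (DHX16, -0.005 to 0.048) and -0.034 (DHX38). Between the knockdowns TPM gave 0.014 (DHX8), 0.023 (DHX9), 0.033 (DHX15) and 0.012 (DHX38), coding isoforms 0.002 (DHX15, -0.026 to 0.013) and trend removal 0.040 (DHX38), with DHX37 at -0.036 to 0.595 leaving out a library. The cause was not tested.

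The replicate numbers did not pair the samples (9 correlations of -0.088 to 0.076, 3 of 9 highest with their own number), and the block left the gene counts at 2, 3 and 2.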
